A study of Mus musculus with 5 samples.

Results

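The genes described here encode the linker histones and the core histones H2A, H2B, H3 and H4. They are the rows of the deposited expression table whose symbol begins with H1f, H2ac, H2bc, H3c, H4c or the older forms Hist1h to Hist4h, followed by a digit. This rule found 69 of the 23857 genes listed: 10 of the H1 class, 18 H2A, 17 H2B, 12 H3 and 12 H4. The rule reads symbols only, but the family was chosen by way of 1 gene, H1f3, whose values had been seen to be higher in the knockout libraries. H1f3 is therefore described without a test, and the counts over the other genes are descriptions that do not support that choice.

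Stromal cells that expressed YFP were sorted from oviducts of young adult female mice, and their RNA was sequenced in bulk, with 1 mouse to a library. The 2 control mice, numbered 2 and 3, had the genotype Pdgfra-Cre;R26Y. The 3 conditional knockout mice, numbered 1, 2 and 3, had the genotype Pdgfra-Cre;Esr1(fl/fl);R26Y, so that both groups carried the Cre transgene and the Rosa26-YFP reporter and differed in the floxed alleles of Esr1, which encodes estrogen receptor alpha. Pdgfra-Cre acts in cells with an active Pdgfra promoter, as mesenchymal cells have, and both the deletion and the YFP sort rest on it. The comparison asks how stromal gene expression differs when Esr1 is deleted there.

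Core histones form the octamer around which DNA is wrapped, and linker histones bind the DNA where it enters and leaves. Most of these genes lie in clusters and are transcribed in S phase, when new chromatin needs histones, and their mRNAs end in a conserved stem-loop, bound by the protein SLBP, in place of a poly(A) tail. The family named by the rule is wider than the replication-dependent set: H1f0 and H1f10 are transcribed outside S phase into polyadenylated mRNA, and H1f6, H1f7, H1f8, H2ac1 and H2bc1 are known from germ cells. The library kit primes cDNA from poly(A), so the values of stem-loop mRNAs measure what such priming recovers.

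The stem-loop is shown because it separates these genes from nearly all others. The pattern searched was 16 bases long: GG, 3 pyrimidines and T, a loop of 4 bases whose second is T, then A, 3 purines and CC, on the transcribed strand of GENCODE M21 transcripts after the stop codon. It was found in 39 of the 53 members that have bases annotated after the stop (73.6%) and in 66 of 21133 other coding genes (0.312%). In every member that held it the stem was fully paired. It took 6 forms, printed below 5′ to 3′ with the paired bases in capitals and the loop in lower case.

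form in 22 members: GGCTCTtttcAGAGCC
form in 6 members, loop ending in A: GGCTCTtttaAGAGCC
form in 6 H4 members: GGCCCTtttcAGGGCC
form in 2 H4 members, TCC in the stem: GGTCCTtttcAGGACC
form in 2 H4 members, loop of T: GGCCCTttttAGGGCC
form in H2ac20: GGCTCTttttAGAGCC

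The first form was shared by 3 H1, 8 H2A, 6 H2B and 5 H3 genes, among them H1f2, H1f3 and H1f4. The forms with a paired CCC or TCC were found in H4 genes alone. The 34 tested members with a stem-loop had a median log2 fold change of 0.91, against 0.90 over all 60 tested members.

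The promoters of the linker histones are shown because H1f2, H1f3, H1f4 and H1f5 share the H1 box and CCAAT at like distances from the start. Each run holds the last 150 bases before the annotated start (RefSeq, GRCm38.p6), 5′ to 3′ on the gene's strand, with the first match of each motif in capitals. The motifs are the H1 box AAACACA, the CCAAT box and the TATAAA box, which is matched in H1f3, H1f4 and H1f5 and not in the H1f2 run. H2bc8 and H2bc18 are shown for the octamer ATTTGCAT, which lies between CCAAT and the start, beginning 59 and 48 bases before it.

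H1f2, chr13:23738657-23738806, plus strand: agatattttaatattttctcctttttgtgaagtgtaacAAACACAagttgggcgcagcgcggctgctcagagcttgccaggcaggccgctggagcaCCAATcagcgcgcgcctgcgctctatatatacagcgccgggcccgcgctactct
H1f3, chr13:23554882-23555031, plus strand: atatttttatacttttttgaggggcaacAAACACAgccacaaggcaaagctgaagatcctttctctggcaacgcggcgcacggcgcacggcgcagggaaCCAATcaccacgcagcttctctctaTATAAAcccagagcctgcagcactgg
H1f4, chr13:23622559-23622708, minus strand: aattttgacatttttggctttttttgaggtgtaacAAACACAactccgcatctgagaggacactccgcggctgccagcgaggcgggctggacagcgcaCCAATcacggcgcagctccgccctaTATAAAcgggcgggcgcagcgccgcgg
H1f5, chr13:21780626-21780775, minus strand: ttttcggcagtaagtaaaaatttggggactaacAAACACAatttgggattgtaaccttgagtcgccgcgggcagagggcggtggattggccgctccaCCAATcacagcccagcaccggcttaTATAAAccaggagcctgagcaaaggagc
H2bc8, chr13:23571250-23571399, plus strand: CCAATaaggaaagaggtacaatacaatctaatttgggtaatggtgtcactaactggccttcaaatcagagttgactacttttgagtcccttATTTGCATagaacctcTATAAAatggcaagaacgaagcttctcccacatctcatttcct
H2bc18, chr3:96269550-96269699, plus strand: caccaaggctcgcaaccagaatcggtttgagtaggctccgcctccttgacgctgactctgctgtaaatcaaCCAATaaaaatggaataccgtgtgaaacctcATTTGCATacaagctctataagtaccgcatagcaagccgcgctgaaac

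In these 4 H1 promoters the H1 box began 112, 122, 115 and 117 bases before the start, and CCAAT began 54, 51, 52 and 53 bases before it. Counted on both strands of the 250 bases before each start, AAACACA was present in 50% of 10 H1 promoters and 6.25% of all 32851 promoters. The germ-cell gene H1f6 held it as well. H1f1 did not, though CCAAT began 56 bases before its start. ATTTGCAT was present in 43.8% of 16 H2B and 37.5% of 16 H2A windows and in 1.6% of all promoters. CCAAT was in 100% of H2A and of H2B windows and 27.3% of 11 H4 windows, against 33.8% of all promoters. TATAAA was in 40% of H1, 43.8% of H2A and of H2B, 40% of H3 and 54.5% of H4 windows, against 12.4% of all promoters. A match in these windows describes the sequence alone.

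Esr1 was examined first, since it is the targeted gene. It stood at 83.3 and 77.6 TPM (abundance per unit of transcript length, scaled to the same total in every library) in control mice 2 and 3. The libraries labelled as knockout mice 1, 2 and 3 had 28.9, 85.0 and 170 TPM. Its level was below both controls in mouse 1 alone, so directions below are between labelled groups. A value per gene does not show whether the floxed part of Esr1 was lost, so it cannot decide whether a label is right. Knockout mouse 1 also differed from knockout mice 2 and 3 in epithelial markers. The summed TPM of 8 epithelial markers was 2924 and 3196 in the controls, 2058 in knockout mouse 1, and 11840 and 12970 in knockout mice 2 and 3. By marker, 5 of the 8 were below both controls in knockout mouse 1, and 7 of the 8 were above both controls in knockout mice 2 and 3. Ovgp1 made up most of each sum. Immune markers summed to 1818 and 2400 in the controls and 1386, 915 and 636 in the knockout libraries, and mesothelial markers to 426 and 338 against 131, 191 and 199. The 8 stromal markers summed to 24840 and 20030 TPM in the controls and 17070, 13080 and 15120 TPM in the knockout libraries. Of these 8, 5 were below both controls in every knockout library and 0 above, with a median log2 fold change of -0.71. The part of these marker differences in the Esr1 and histone values was not tested. None of the epithelial, immune or mesothelial markers was at 0 in all libraries. In bulk samples fewer cells of a type and less RNA per cell cannot be told apart. Relative sequencing depth, estimated from the steps between low values, was 66.5% of control mouse 2 in control mouse 3 and 48.4%, 82.8% and 67.3% of it in knockout mice 1, 2 and 3.

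Values of the family as a whole were higher in the knockout libraries. Summed over the 69 members, they came to 4617 and 5822 TPM in control mice 2 and 3 and to 9171, 9399 and 7861 TPM in knockout mice 1, 2 and 3. All 3 knockout libraries exceeded both controls, with group means of 8810 ± 830 TPM (SD, n = 3) and 5220 ± 852 TPM (SD, n = 2), a ratio of 1.69. Of 60 members with at least 1 TPM in at least 2 libraries, 59 remain without H1f3, and 41 of these (69.5%) were higher in every knockout library than in either control. The same held for 11.9% of the 19292 genes tested. H1f8 was the 1 member lower in all 3, a pattern seen in 21.9% of genes tested, and 17 members overlapped. The median log2 fold change on the log2(TPM + 1) scale was 0.89 for these 59 members and -0.02 for all genes, with 54 of the 59 above 0. With H1f3 the median was 0.90.

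**Figure D1:**
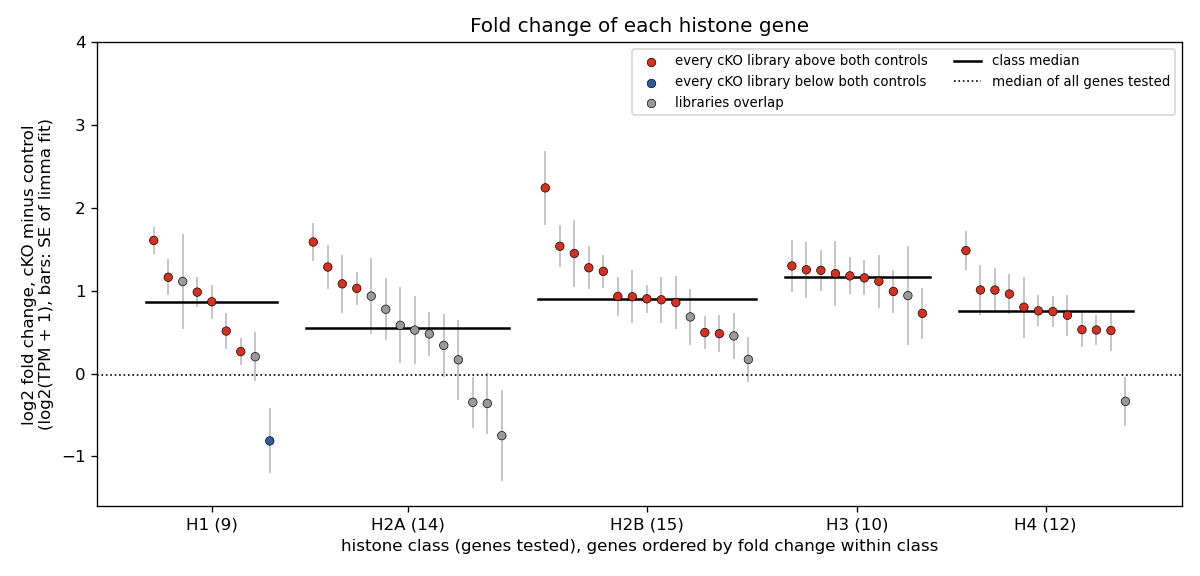
Log2 fold change (Esr1 conditional knockout, cKO, minus control, on log2(TPM + 1)) of the 60 tested histone genes, ordered within class. Points are genes, bars the standard error of the limma fit, and colours show whether the 3 knockout libraries lay outside both controls. Class medians run from 0.55 (H2A) to 1.17 (H3), above the dotted median of all genes, -0.02.

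No member other than H1f3, which was not tested, passed the correction over all genes. In limma's test on all 5 libraries, with Benjamini-Hochberg adjustment, 0 of the 59 members other than H1f3 were called higher or lower at an adjusted p of 0.05, and the lowest adjusted p was 0.117, for H2ac4. Of all genes, 2 were called higher (0.0104%) and 3 lower (0.0156%). At an unadjusted p under 0.05, 35 of the 59 were higher and 0 lower, against 3.7% and 9.87% of all genes. With knockout mouse 1 left out, 16 members were called higher and 0 lower, against 5.35% and 2.63% of 19106 genes. That fit leaves out the library with the lowest Esr1 and keeps the knockout libraries with 85.0 and 170 TPM of Esr1, and 6 of the 8 epithelial markers were called higher in it as well. The part of either in these calls was not tested. The 16 members were H1f1, H1f2, H2ac4, H2ac6, H2ac21, H2bc3, H2bc4, H2bc6, H2bc9, H2bc15, H3c2, H3c6, H3c8, H4c8, H4c11 and H4c12. The 2 controls also differed from each other. Control mouse 3 exceeded control mouse 2 in 43 of the 60 tested members, and control mouse 2 was lowest of the 5 libraries for 41 of the 60 members found in all of them. The median log2 fold change was 0.62 without control mouse 2 and 1.08 without control mouse 3.

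Among the linker histones, H1f2 was the most abundant, at 187 and 245 TPM in control mice 2 and 3 and 439, 406 and 430 TPM in knockout mice 1, 2 and 3. The groups did not overlap, and the log2 fold change was 0.98 ± 0.19 (SE), with an adjusted p in limma of 0.153. H1f3 (chr13:23555032-23555807, GRCm38.p6) had 30.2 and 33.5 TPM in the controls and 108, 98.8 and 91.0 TPM in the knockout libraries. Every knockout value was above both controls, and the ratio of the means was 3.12, the highest among the H1 genes. H1f1 was at 24.6 and 35.0 TPM in controls and 79.2, 64.8 and 58.6 TPM in knockout libraries, again without overlap. Its log2 fold change was 1.16 ± 0.22 (SE), with an adjusted p in limma of 0.153 over 5 libraries and 0.033 without knockout mouse 1.

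H1f4 had 79.1 and 112 TPM in controls and 181, 152 and 185 TPM in the knockout libraries, a log2 fold change of 0.87 ± 0.20 (SE; limma adjusted p = 0.197). H1f5 overlapped. It had 8.30 and 41.1 TPM in the controls, with control mouse 2 the lowest of all 5 libraries, and 40.4, 51.1 and 35.3 TPM in the knockout libraries. H1f2, H1f3, H1f4, H1f5 and H1f1 are the somatic linker histones of cycling cells. Apart from H1f3, by which the family was chosen, H1f2, H1f4 and H1f1 separated the groups and H1f5 did not. Of all genes tested, 11.9% lay above both controls in every knockout library.

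The linker histones made outside S phase had smaller differences. H1f0, which accumulates in resting and differentiated cells, was at 136 and 136 TPM in controls and 154, 156 and 182 TPM in knockout libraries, with a log2 fold change of 0.27 ± 0.16 (SE; limma adjusted p = 0.479). H1f10 was at 17.3 and 18.4 TPM in controls and 32.7, 25.2 and 21.1 TPM in knockout libraries, with a log2 fold change of 0.51 ± 0.22 (SE; limma adjusted p = 0.374). Both lay above the controls in every knockout library. The difference between these genes and the S-phase linker histones was not tested. As a share of summed H1 TPM, H1f0 made up 27.8% and 21.7% in controls and 14.8%, 16.3% and 18% in knockout libraries, while H1f3 made up 6.17% and 5.36% against 10.4%, 10.3% and 9.03%. H1f2 held between 38.2% and 42.7% in all 5 libraries.

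The germ-cell linker histones were low throughout. H1f8, the oocyte form, was at 3.24 and 2.21 TPM in controls and 1.27, 2.00 and 0.364 TPM in knockout libraries, with a log2 fold change of -0.81 ± 0.39 (SE; limma adjusted p = 0.407). H1f6, a testis form, was at 3.13 and 2.27 TPM in controls and overlapped at 4.07, 2.24 and 3.61 TPM in knockout libraries. H1f7 was below 1 TPM in every library and was not tested.

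**Figure D2:**
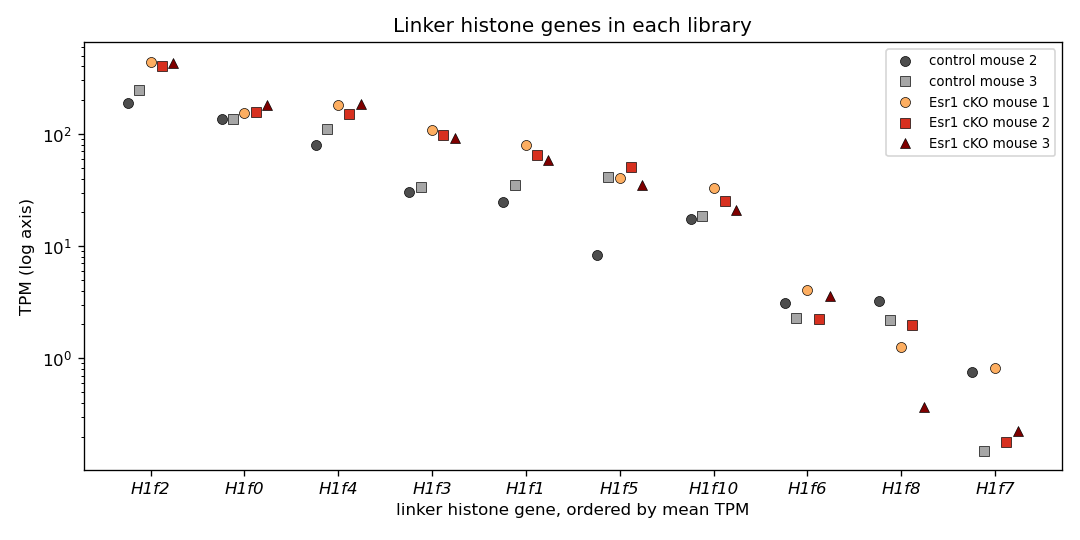
TPM (log axis) of the 10 linker histone genes in each library, ordered by mean level. Grey points are control mice and coloured points Esr1 cKO mice. H1f2, H1f0, H1f4, H1f3, H1f1 and H1f10 show all 3 coloured points above both grey ones, and H1f5 has control mouse 2 alone far below the rest, at 8.30 TPM.

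H2A was the class with the most overlap between groups. Of 14 tested, 4 lay above both controls in every knockout library, against 11.9% of all genes, and the other 10 overlapped. The median log2 fold change of the 14 was 0.55. H2ac15, the most abundant, was at 23.2 and 47.5 TPM in controls and 99.9, 64.0 and 57.5 TPM in knockout libraries, and its log2 fold change was 1.08 ± 0.35 (SE; limma adjusted p = 0.292). H2ac4 was at 9.33 and 9.71 TPM in controls, nearly equal, and at 36.9, 33.4 and 23.3 TPM in knockout libraries. Its log2 fold change was 1.59 ± 0.23 (SE), with an adjusted p in limma of 0.117, and 0.0226 without knockout mouse 1. H2ac6, at 10.7 and 6.67 TPM against 25.7, 17.9 and 23.5 TPM, and H2ac21, at 7.46 and 9.06 TPM against 16.5, 16.9 and 20.3 TPM, also separated the groups. H2ac20 went the other way, at 23.4 and 32.5 TPM in controls and 32.0, 17.7 and 17.4 TPM in knockout libraries. It overlapped, with a log2 fold change of -0.35 ± 0.31 (SE; limma adjusted p = 0.603).

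H2B genes lay on 1 side of 0. All 15 tested had a log2 fold change above 0, against 47.8% of all genes, with a median of 0.90. In every knockout library 12 lay above both controls, and the share of all genes was 11.9%. H2bc18 was at 153 and 181 TPM in controls and 275, 236 and 199 TPM in knockout libraries, a log2 fold change of 0.50 ± 0.20 (SE; limma adjusted p = 0.351). H2bc4 was at 121 and 121 TPM in controls and 146, 307 and 274 TPM in knockout libraries, with knockout mouse 1 nearest the controls. Its adjusted p in limma was 0.312, and 0.014 without knockout mouse 1. H2bc8 was at 71.7 and 107 TPM in controls and 194, 174 and 141 TPM in knockout libraries, without overlap.

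The widest relative differences in this class were in less abundant genes. H2bc15 stood at 38.5 and 36.2 TPM in controls and 108, 150 and 83.0 TPM in knockout libraries, a log2 fold change of 1.54 ± 0.25 (SE; limma adjusted p = 0.123). H2bc3, with 36.3 and 38.6 TPM in controls and 112, 77.0 and 83.0 TPM in knockout libraries, had a log2 fold change of 1.24 ± 0.20 (SE; limma adjusted p = 0.118). H2bc11, H2bc9, H2bc13, H2bc14, H2bc6 and H2bc12 also separated the groups, with log2 fold changes of 1.45, 1.28, 0.86, 0.89, 0.90 and 0.48. H2bc1, the germ-cell H2B, was at 1.08 and 0 TPM in controls and 5.17, 3.90 and 9.54 TPM in knockout libraries. These values rest on about 6.3, 0, 14.5, 18.8 and 37.3 reads, so the fold is imprecise. The 7 H2B members with the octamer in a promoter window all lay above both controls, as did 4 of the 6 tested members without it. Of all genes, 11.9% did. The median log2 fold changes with and without the octamer were 0.90 and 1.07.

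H3 genes had the highest class median, 1.17, and their fold changes ran from 0.73 to 1.30. Of 10 tested, 9 lay above both controls in every knockout library, against 11.9% of all genes. H3c11 was at 36.0 and 39.6 TPM in controls and 85.3, 151 and 53.8 TPM in knockout libraries, a log2 fold change of 1.21 ± 0.39 (SE; limma adjusted p = 0.292). H3c4 was at 24.0 and 30.0 TPM in controls and 47.4, 92.3 and 47.5 TPM in knockout libraries. H3c7 was at 23.2 and 33.8 TPM in controls and 62.0, 68.3 and 43.1 TPM in knockout libraries. Each of these genes was clear of the controls in all 3 knockout mice, with knockout mouse 2 the highest of the 3.

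H3c6, H3c8 and H3c2 were the H3 genes called higher without knockout mouse 1, with adjusted p of 0.0371, 0.0281 and 0.0358 in limma. In that fit 5.35% of all genes were called higher. H3c6 was at 22.9 and 25.5 TPM in controls and 64.2, 64.0 and 42.8 TPM in knockout libraries. H3c8 was at 9.93 and 11.9 TPM in controls and 30.9, 23.6 and 22.5 TPM in knockout libraries. H3c2 was at 7.99 and 6.38 TPM in controls and 23.6, 14.7 and 17.7 TPM in knockout libraries. H3c1, H3c10 and H3c13 separated the groups with log2 fold changes of 1.25, 1.30 and 0.73, and H3c3 overlapped through knockout mouse 3.

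H4 genes carried most of the signal of the family. They held 69.2% and 69.5% of the family's summed TPM in controls and 64.7%, 66.1% and 66% in knockout libraries. H4c4, the most abundant member of all, was at 856 and 1152 TPM in controls and 1634, 1859 and 1398 TPM in knockout libraries, with no overlap. Its log2 fold change was 0.70 ± 0.25 (SE; limma adjusted p = 0.318). H4c3 was at 352 and 403 TPM in controls and 888, 780 and 571 TPM in knockout libraries, and its log2 fold change was 0.96 ± 0.24 (SE; limma adjusted p = 0.203). H4c14 was at 477 and 458 TPM in controls and 709, 717 and 601 TPM in knockout libraries, with a log2 fold change of 0.53 ± 0.18 (SE; limma adjusted p = 0.317).

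Of the 12 H4 genes, 11 lay above both controls in every knockout library, against 11.9% of all genes. H4c12 had the widest difference of the class, at 57.6 and 81.5 TPM in controls and 197, 237 and 156 TPM in knockout libraries, a log2 fold change of 1.49 ± 0.24 (SE; limma adjusted p = 0.118). H4c6, H4c2, H4c8, H4c11, H4c1, Hist1h4n and Hist1h4m followed, with log2 fold changes of 1.01, 1.01, 0.75, 0.76, 0.52, 0.53 and 0.80. The exception was H4c9, singled out with its values known, at 266 and 414 TPM in controls and 200, 257 and 353 TPM in knockout libraries. It overlapped, with a log2 fold change of -0.34 ± 0.30 (SE; limma adjusted p = 0.604).

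**Figure D3:**
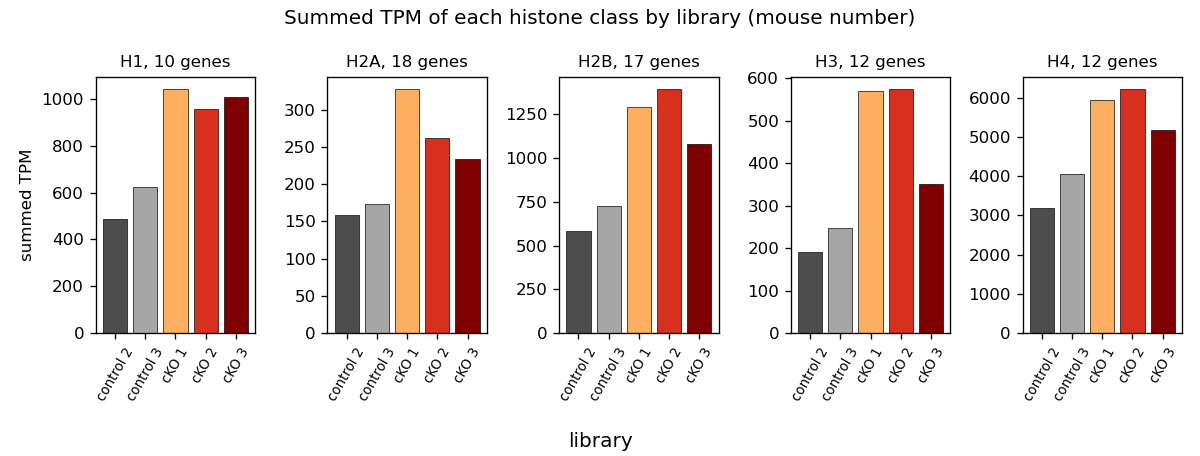
Summed TPM of each histone class in each library, each panel on its own axis from 0. The 3 knockout bars exceed both control bars in every class, by 1.6 times (H4) to 2.28 times (H3) on the ratio of group means, and knockout mouse 3 is the lowest knockout bar in H2A, H2B, H3 and H4.

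By class, summed TPM was 490 and 626 in controls against 1041, 958 and 1008 in knockout libraries for H1. It was 159 and 174 against 327, 262 and 233 for H2A. It was 582 and 727 against 1295, 1393 and 1079 for H2B. These 3 classes had ratios of group means of 1.8, 1.65 and 1.92. H3 summed to 190 and 247 against 570, 574 and 352, a ratio of 2.28. H4 summed to 3197 and 4049 against 5938, 6212 and 5189, a ratio of 1.6. The H3 share of the family was 4.11% and 4.24% in controls and 6.21%, 6.11% and 4.48% in knockout libraries.

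Members within a class are near copies of each other, which bears on how reads were shared among them. The share of a gene's 50-base coding windows that also occur in another annotated gene had a median of 0% for H1, 83.9% for H2A, 77.2% for H2B, 84.7% for H3 and 70.9% for H4. Within H1, windows were shared in H1f3 (26.4%), H1f4 (25.4%) and H1f2 (21.9%), and the other H1 genes shared none. All windows were shared in 11 of 66 members measured. Of these, H3c14, H3c15, H2ac18, H2ac19, Hist1h2ao, Hist1h2bq and Hist1h2br stood at or close to 0 in every library, while H2ac7, H2ac11, Hist1h4m and Hist1h4n did not. Altogether 6 members were listed at 0 in all 5 libraries, and 9 were not tested. How the authors' counting treated reads that fit several genes is not given in the sources used here. Values of single histone genes, H1f2, H1f3 and H1f4 included, are therefore uncertain where windows are shared. The 15 tested members with under 50% of windows shared had a median log2 fold change of 0.71, and the 43 with 50% or more had 0.93. Of the 15, the 7 that shared no window, mostly H1, had a median of 0.265. Among these 7, 3 lay above both controls in every knockout library and 1 below, against 11.9% and 21.9% of all genes.

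**Figure D4:**
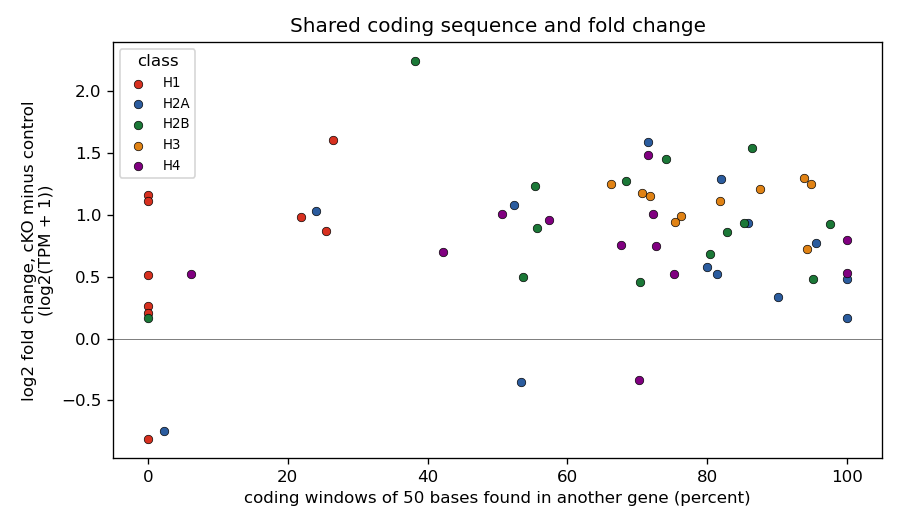
Share of each member's coding windows of 50 bases that occur in another annotated gene (percent, x axis) against its log2 fold change (y axis), coloured by class. Members sharing no window, mostly H1, lie between -0.81 and 1.16, and members sharing all windows between 0.17 and 0.80.

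By position, 54 members lie on chromosome 13, 10 on chromosome 3, and the remainder on chromosomes 6 and 15 or without a match. On chromosome 13 all but Hist1h2al fall into 2 stretches, chr13:21715711-22043658 and chr13:23531044-23934913 (GRCm38.p6). Tested members had a median log2 fold change of 0.86 in the first stretch (19 genes), 0.98 in the second (31 genes) and 0.51 on chromosome 3 (6 genes). Several H2A and H2B genes stand head to head and so share a promoter region. In H2ac15 and H2bc15, 164 bases apart, the log2 fold changes were 1.08 and 1.54. In H2ac11 and H2bc11, 249 bases apart, they were 0.17 and 1.45, and in H2ac1 and H2bc1, 281 bases apart, -0.75 and 2.24. In the remaining pairs with both genes tested, the log2 fold changes ran from 0.34 to 0.94. All coding windows of H2ac11 are shared with other genes. H2ac1 rests on about 35.2 and 7.1 reads in the controls and 5.2, 15.8 and 1.7 in the knockout libraries, and H2bc1 on few as well. All coding windows are also shared in H2ac7, whose pair had closer log2 fold changes of 0.48 and 0.68. The part of shared windows and few reads in these values was not tested.

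Genes that act on histone mRNA or histone protein had medians nearer to 0. In a list of 14 genes of histone mRNA transcription, 3′ end processing and decay, the median log2 fold change was 0.13. In either direction 0 passed limma's adjusted or unadjusted threshold. Of all genes, 3.7% passed the unadjusted one as higher and 9.87% as lower. Srrt, a cap-binding partner, stood at 76.1 and 64.7 TPM in controls and 55.8, 77.6 and 67.0 TPM in knockout libraries. Cpsf3, the nuclease of histone and poly(A) cleavage, stood at 59.0 and 47.3 TPM against 49.1, 67.2 and 58.6 TPM. Both overlapped, as did Slbp, the stem-loop binding protein, at 26.1 and 35.5 TPM against 34.4, 27.7 and 29.3 TPM (Slbp was named after its values were seen).

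Among 23 histone chaperone and import genes the median log2 fold change was 0.05. In every knockout library 7 lay above both controls and 2 below, against 11.9% and 21.9% of all genes. At an unadjusted p under 0.05 in limma, 2 were higher and 0 lower, against 3.7% and 9.87% of all genes. Those 2 were the histone-binding proteins Rbbp7 and Rbbp4, both also called without knockout mouse 1, where 5.35% of genes were called higher. Rbbp7 stood at 142 and 118 TPM in controls and 272, 294 and 254 TPM in knockout libraries, a log2 fold change of 1.07 ± 0.17 (SE; limma adjusted p = 0.118, and 0.0209 without knockout mouse 1). Rbbp4 stood at 67.4 and 67.0 TPM in controls and 90.2, 102 and 97.7 TPM in knockout libraries, a log2 fold change of 0.51 ± 0.15 (SE; limma adjusted p = 0.25, and 0.0388 without knockout mouse 1).

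Replacement histone variants, whose symbols the rule does not match, had a median log2 fold change of 0.22 over 9 genes. H3f3b was at 659 and 691 TPM in controls and 740, 886 and 860 TPM in knockout libraries, and H3f3a at 456 and 541 TPM against 472, 605 and 695 TPM. H2ax, which carries the DNA-damage phosphorylation mark, had 28.2 and 34.5 TPM against 43.9, 54.6 and 50.6 TPM, and was picked out once its values were known. Its adjusted p in limma was 0.235, and 0.0406 without knockout mouse 1.

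Genes of DNA replication and S phase also had a median above that of all genes, and below that of the histones. The median log2 fold change of 27 such genes was 0.29, with 22 above 0, against 47.8% of all genes tested, and 0 past limma's adjusted threshold. In every knockout library 12 of the 27 genes lay above both controls and 1 of the 27 below, against 11.9% and 21.9% of all genes. At an unadjusted p under 0.05, 3 were higher and 0 lower, against 3.7% and 9.87% of all genes. Pcna, the replication clamp, was at 93.8 and 115 TPM in controls and 94.9, 96.7 and 83.5 TPM in knockout libraries. Mcm4, a subunit of the replicative helicase, was at 19.6 and 25.0 TPM against 26.6, 27.5 and 28.0 TPM. Top2a, a topoisomerase of dividing cells, also picked with its values known, had 5.48 and 9.21 TPM against 19.1, 17.5 and 12.3 TPM. Whether S-phase cells differed in number between the groups was not tested.

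**Figure D5:**
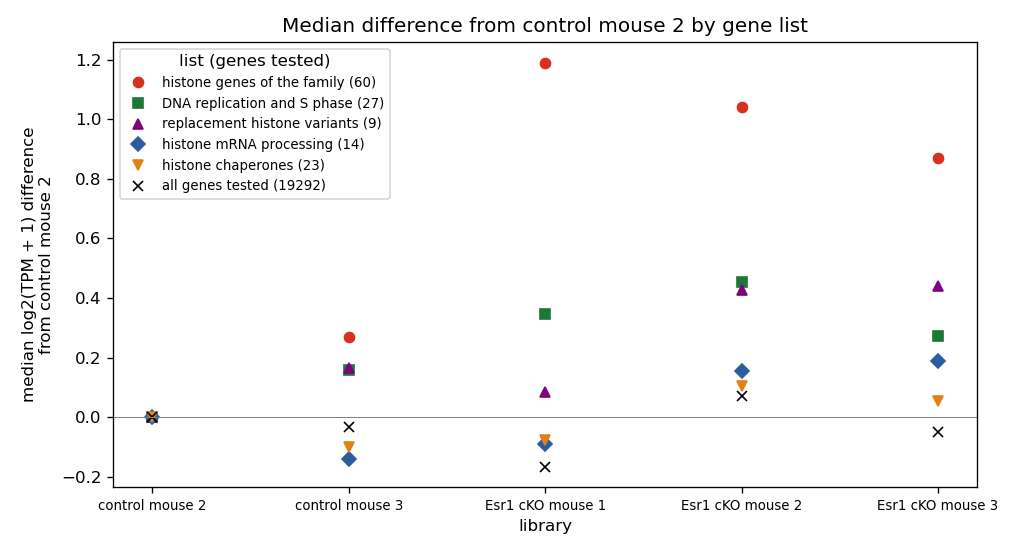
Median difference of log2(TPM + 1) from control mouse 2 in each library for the histone family and the lists that act with it. The family stands at 0.27 in control mouse 3 and at 1.19, 1.04 and 0.87 in knockout mice 1, 2 and 3, while the S-phase list reaches 0.45 at most and all genes stay between -0.17 and 0.07.

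Measured from control mouse 2, the median difference of the 60 members was 0.27 in control mouse 3 and 1.19, 1.04 and 0.87 in knockout mice 1, 2 and 3. The S-phase list stood at 0.16 in control mouse 3 and at 0.35, 0.45 and 0.27 in the knockout libraries. Rpph1, a non-coding RNA without a poly(A) tail, took 185822 and 213460 TPM in controls and 223129, 143307 and 131222 TPM in knockout libraries. With Rpph1 and the ribosomal precursor Rn45s left out and TPM rescaled, 38 members, H1f3 included, lay above both controls (42 before) and the median log2 fold change was 0.85. With quantile normalization they were 33 and 0.80. The share of all genes above both controls was not computed for either scaling. The part of priming from poly(A) in the histone values was not tested.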

How the data were processed

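Values were analysed for 5 libraries, 2 control and 3 Esr1 conditional knockout, grouped by the labels. The authors deposited TPM per gene. STAR is named in the name the authors gave the table, the build was mm10 per the submitters' processing notes, and the gene counter and annotation are not given in the sources used here. Each library sums to 1000000 TPM. The members and lists were chosen with earlier results of these data known.

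A linear model of log2(TPM + 1) on genotype was fitted in limma 3.58.1 (R 4.3.3; eBayes with a mean-variance trend, two-sided, Benjamini-Hochberg adjustment over 19292 genes with at least 1 TPM in at least 2 libraries). The log2 scale understates changes of low genes. The p-values measure the spread between 5 mice. Of the 69 symbols, 60 matched RefSeq (GRCm38.p6) directly, 8 by an older symbol and 1 not at all, 67 matched GENCODE M21, and 62 had a promoter entry, in 63 windows. GRCm38 is the assembly behind mm10. Depth was estimated in Python 3.11.15 (numpy 2.4.6, pandas 2.3.3) from steps in low TPM values, and 1 TPM per kb was about 13.4, 8.94, 6.5, 11.1 and 9.04 reads in these libraries, controls 2 and 3 first, then knockouts 1 to 3. Read numbers are approximate. Scripts were tested on simulated data.

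Named were all H1 members, the 3 most abundant members of each core class, members with a mean of at least 5 TPM and no overlap, and the 2 most abundant genes of each other list. Other genes are given by count, apart from some chosen after their values were seen. These were H2bc1, H3c3, H4c9, the genes listed at or near 0, the head-to-head partners H2ac1, H2ac7 and H2ac11, Slbp, H2ax and Top2a. Alternatives were other pseudocounts, filters, scalings, weights, a block on mouse number and leaving out each library.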

Additional observations from a re-analysis of the deposited data

How the results depend on the processing

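The number of members other than H1f3 called higher was 0 with all 5 libraries equally weighted and no block on mouse number. It was 20 with array weights and between 0 and 16 when 1 knockout library was left out. The 16 came from leaving out knockout mouse 1. No member was called lower under any alternative. Of all genes, 5 were called in either direction, which became 0 with a pseudocount of 0.1, 3 with no filter, 0 with a mean TPM of at least 5, 2 with median-of-ratios scaling, 656 with array weights, 36 at an adjusted p of 0.1, and 0 to 1524 when 1 library was left out. The cause was not tested. The median log2 fold change of the family ran from 0.621 to 1.08 over the libraries left out. Members above both controls, H1f3 included, numbered 42, and 33 to 50 over the scalings and the libraries left out. The share of all genes with this pattern, 11.9%, was computed for the main values alone. The pattern is easier to meet with a library left out, so this range does not measure stability. For the named members, 497 of 583 values kept their direction and, where tested, their side of the threshold. A further 57 became called and 29 moved by more than the spread. H1f3 and the fits without 1 control had no test, so their values were compared by direction and size alone. No value changed sign while called.

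With mouse number as a replicate block, 23 members and 1858 genes were called, and Esr1 moved from -0.0988 to 0.574. Mouse number 1 occurs in the knockout group alone, so the block takes knockout mouse 1 out of the comparison. The family median, 0.827, and the Esr1 value equal those of the fit without knockout mouse 1. The calls of these fits are therefore not separate from each other, and the limits given for the fit without knockout mouse 1 hold here. Deviations from the group means of mice sharing a number had correlations of -0.0598 and -0.0719 (2 pairs). With 2 controls, the control deviations are mirror images of each other. The correlations therefore cannot decide whether the numbers pair the samples. A fit without 1 control leaves a lone control that is assumed to vary like the knockout mice, and its values carry no test. Of the 59 members spanning under 1500 bases, 51 had at least 10 approximate reads in every library, and H1f7 and H2bc1 were among those that did not.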

Other observations

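Other genes lying inside the histone stretches of chromosome 13 were also looked at, after the histone values were seen. In chr13:21715711-22043658 the 3 other tested genes, Zfp184, Pom121l2 and Prss16, had a median log2 fold change of -0.36, and in 0 of them did every knockout library lie above both controls. In chr13:23531044-23934913 the 2 other tested genes, Hfe and Trim38, had a median of -0.01, also with 0 above both controls. Hfe, which regulates iron uptake and lies within the second stretch, was at 12.5 and 11.6 TPM in control mice 2 and 3 against 23.2, 17.3 and 12.0 TPM in knockout mice 1, 2 and 3, with a log2 fold change of 0.46 ± 0.28 (SE; limma adjusted p = 0.484). Of all genes, 11.9% lay above both controls in every knockout library, and with 5 genes these neighbours give no test of the stretches.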
